A study of Homo sapiens with 8 samples.

Results

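The mitochondrial ribosomal protein genes were taken as the protein-coding genes whose symbol begins with MRPL or MRPS followed by a digit, each read through probe sets annotated to that gene alone. They numbered 76 of the 18244 genes with such a probe set, 48 named MRPL and 28 named MRPS, and were read by 163 probe sets. RefSeq lists 77 protein-coding genes of these names. The one left over, MRPL53, shared its probe sets with CCDC142 and was not used, and the antisense gene MRPL20-AS1 was left out. All 76 read above the array median on all 8 arrays, so every one was tested, among 11926 genes that passed the filter (above the array median on at least 2 arrays). Where a gene had several probe sets, the one with the highest mean over the 8 arrays was used, and the others were compared with it.

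The arrays came from 2 human lung adenocarcinoma cell lines. HCC827 has an activating mutation in the gene of the growth factor receptor EGFR, which A549 lacks. Each line was grown in 2D dishes for 7 days or on a 3D collagen scaffold for 14 days, without inhibitor or with 1 µM gefitinib, a drug that blocks the EGFR kinase. In 3D the drug was given for the last 3 days. In 2D a start after 4 days was read from a label that is not plain on this point, and the duration is not stated. The cells seeded numbered 200000 in 2D and 100000 in 3D. Every line and culture was thus represented by a control and a gefitinib sample, which makes 8 conditions with 1 array each. Each line is a single established tumour cell line, and nothing in the labels gives separate cultures of a condition.

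Mitochondria keep a ribosome of their own, descended from that of bacteria, which translates the few proteins encoded by mitochondrial DNA. These proteins are core subunits of the respiratory chain and of ATP synthase, so the ribosome's output is needed for oxidative phosphorylation. Its RNAs come from mitochondrial DNA, but all of its proteins are encoded in the nucleus, made in the cytosol and imported. Proteins of the small subunit carry the name MRPS and help to read the messenger RNA, and those of the large subunit carry the name MRPL and surround the site of peptide bond formation and the exit tunnel. Some have a bacterial counterpart and others were added in the mitochondrial lineage. MRPS30 and MRPS18A are named as small-subunit proteins but sit in the large subunit, and are counted there.

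Values are log2 signals, written in pairs with the control first and the gefitinib array second, and differences are log2 differences, so that 1 is a doubling. Differences were tested with limma in a fit over all 8 arrays, given with the standard error of that fit (±) and a p-value adjusted by the Benjamini-Hochberg method over the 11926 genes. An adjusted p under 0.05 was the threshold, and "higher", "lower", "rose" or "fell" without a value means that it was passed. With 1 array per condition, the error of the fit is how far a line's gefitinib difference in 2D departs from that in 3D, so p-values describe these arrays and not the spread between cultures. In HCC827, 9 of 10 listed genes of proliferation and of the output of ERK, a kinase downstream of EGFR, were above 0 for gefitinib minus control in 2D and below 0 in 3D. The phosphatase gene DUSP6, induced by ERK, read 11.48 in the 3D control and 8.16 in the 3D gefitinib array, but 6.57 in the array labelled 2D control and 10.21 in the array labelled 2D gefitinib. The 2D pair of HCC827 therefore goes against its labels on these genes, and values that rest on it are given as labelled and, where possible, without it. Exchanging that pair would leave the averages over treatment as they are, but not their errors or the counts of genes past the threshold.

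RNA preparation differed together with culture: 3D samples were lysed with beads and purified on micro columns, 2D samples on mini columns. The actin control probe sets, which compare the 3' end of a transcript with its 5' part, gave a 3' minus 5' difference of 1.67 and 1.74 in A549 3D and 2.34 and 2.64 in HCC827 3D (control and gefitinib), against -0.14 to -0.050 in the 4 2D arrays. The means were 2.10 ± 0.47 (SD, n = 4) in 3D and -0.096 ± 0.037 (n = 4) in 2D (two-sided exact permutation test over 70 splits, p = 0.0286, which is the lowest value possible). The 4 arrays of a culture are unlike conditions (both lines, control and gefitinib) and not replicates. The splits took no account of line or treatment. Epithelial keratins KRT8 and KRT18 were well above the array median on every array, while PTPRC and CD3E of leukocytes, CDH5 of endothelium and COL1A2, COL3A1, DCN and PDGFRB of fibroblasts and pericytes were below it on every array. Of the other markers of those cells, CD68 was above it on 8 arrays, CD14 and LUM on 4 each (LUM up to 9.93 in HCC827 2D), PECAM1 on 3, LYZ and COL1A1 on 2 each and VWF on 1. Their part in the results was not tested. NKX2-1 and SFTA2 were above the median only in HCC827, and ALDH1A1 only in A549. Of the other genes listed for either line, EGFR was above the median on 8 arrays, AKR1B10 on 6 and AKR1C1 on 5.

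The first comparison asked how the lines differed, over 4 arrays of each. HCC827 stood below A549 in 26 of the 76 genes and above it in 12. Among all tested genes 26.1% were lower and 22.0% higher, and 26 and 12 of 76 are 34.2% and 15.8%. The median of the 76 was -0.15, against -0.027 over all tested genes. The matched pairs were unlike: the median of the 76 was -0.15 between the 2D controls, -0.021 between the 2D gefitinib arrays, 0.029 between the 3D controls and -0.29 between the 3D gefitinib arrays. With cyclic loess scaling of the arrays, 22 were lower and 18 higher (28.9% and 23.7%, against 22.9% and 25.4% of all tested genes). In RNA from whole cultures, less RNA per cell and fewer cells of a kind cannot be told apart. The actin 3' minus 5' difference in 3D was also larger in HCC827 than in A549, and its part in the difference between the lines was not tested. All 4 HCC827 arrays lay below all 4 A549 arrays in 17 of the 76 genes (18.2% of all tested genes did so, 22.4% of these), and above them in 6 (14.4% of all, 7.89% of these).

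The lowest values in HCC827 were in the small subunit. MRPS12 read 11.54 and 11.44 in A549 2D, 10.04 and 9.97 in HCC827 2D, 11.01 and 11.18 in A549 3D, and 9.89 and 9.38 in HCC827 3D. MRPS12 lies at the decoding centre, where codon and anticodon are matched. Its 4 HCC827 values lay below its 4 A549 values, a difference of -1.47 ± 0.12 (adjusted p = 0.00183). The other probe sets of MRPS12 were called lower too, by smaller amounts (-0.99 and -0.76). MRPS11 read 11.01 and 11.12 in A549 2D, 9.78 and 9.87 in HCC827 2D, 10.89 and 10.91 in A549 3D, and 9.46 and 9.28 in HCC827 3D. MRPS11, a protein of the small subunit's platform, also separated the lines without overlap, by -1.38 ± 0.10 (adjusted p = 0.00130). MRPS27 read 9.75 and 9.68 in A549 2D, 8.53 and 8.79 in HCC827 2D, 8.81 and 9.20 in A549 3D, and 7.80 and 7.55 in HCC827 3D. MRPS27 is a mitochondria-specific protein of the small subunit with pentatricopeptide repeats, a fold that binds RNA. All 4 of its HCC827 values were below all 4 of A549, at -1.19 ± 0.14 (adjusted p = 0.00408). MRPS16, whose gene is mutated in an inherited defect of mitochondrial translation, was at -0.98 ± 0.09 (adjusted p = 0.00228), and the 2D values of HCC827 lay above the 3D values of A549.

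Large-subunit genes that were lower in HCC827 included MRPL50 (-0.90 ± 0.13), MRPL41 (-0.86 ± 0.12) and MRPL46 (-0.85 ± 0.11), all mitochondria-specific. MRPL12, the protein of the flexible stalk that recruits translation factors and also a partner of the mitochondrial RNA polymerase, read 11.25 and 10.97 in A549 2D, 10.29 and 10.33 in A549 3D, 10.42 and 10.62 in HCC827 2D, and 9.52 and 8.98 in HCC827 3D. Its difference was -0.83 ± 0.16 (adjusted p = 0.0160), and the HCC827 2D values lay above the A549 3D values. MRPL58, which releases stalled peptides and is built into the large subunit, was lower by a smaller amount, -0.47 ± 0.11 (adjusted p = 0.0260), and did not overlap between the lines.

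Genes higher in HCC827 came from both subunits. MRPL37 read 10.07 and 10.21 in A549 2D, 10.88 and 11.43 in HCC827 2D, 9.54 and 9.71 in A549 3D, and 10.84 and 10.12 in HCC827 3D. MRPL37, a mitochondria-specific protein of the large subunit, differed by 0.93 ± 0.23 (adjusted p = 0.0319), and only the HCC827 3D gefitinib value reached into the range of A549. MRPS28 (0.85 ± 0.14) and MRPS17 (0.85 ± 0.10), small-subunit proteins with bacterial counterparts, were higher in each matched pair of arrays, but their HCC827 3D values were not above A549 2D. MRPL4 (0.74 ± 0.16), which lines the exit tunnel, MRPL9 (0.61 ± 0.086), MRPL14 (0.61 ± 0.092) and MRPL52 (0.60 ± 0.086) separated the lines without overlap. MRPS30, of the large subunit, was higher by 0.66 ± 0.13 with overlap. Averaged over its probe sets, MRPL9 missed the threshold (0.17, adjusted p = 0.0801). Of 38 genes with several probe sets past the filter, 29 had the same sign in all of them and 9 did not. Among the 14 of these that were lower in HCC827, 12 had one sign, and in 10 every probe set was called. Among the 6 that were higher, 5 had one sign, and in 2 every probe set was called.

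**Figure D1:**
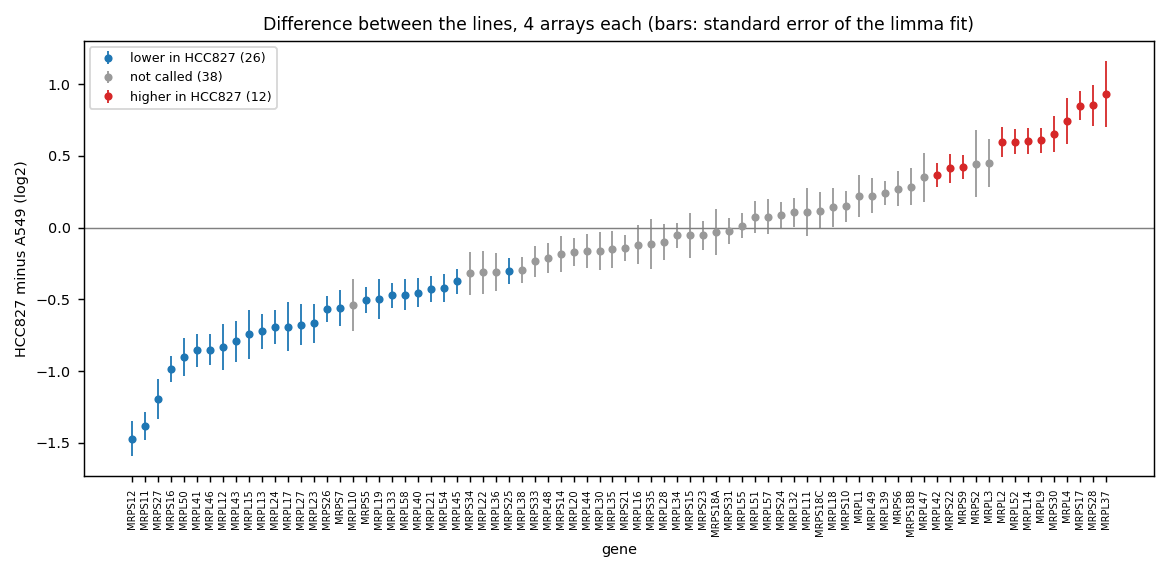
Difference between HCC827 and A549 (log2, vertical axis) for each of the 76 genes, ordered from lowest to highest. Points are means over 4 arrays of each line, bars the standard error of the limma fit, and colours mark the 26 lower, 12 higher and 38 genes that were not called. The low end is MRPS12, MRPS11 and MRPS27 and the high end MRPL37, MRPS28 and MRPS17.

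By role, the small-subunit genes with a bacterial counterpart were 3 higher and 5 lower of 16 (median 0.018), and the mitochondria-specific ones of that subunit 1 higher and 3 lower of 10 (-0.17). In the large subunit the counts were 4 higher and 10 lower of 30 with a bacterial counterpart (-0.16) and 4 higher and 8 lower of 20 mitochondria-specific (-0.19). Both subunits and both origins thus held genes that were lower and genes that were higher. Over all tested genes the shares were 26.1% lower and 22.0% higher, and differences between the roles were not tested. The counts depended on which line supplied the error. Without any 1 of the A549 arrays the error came from HCC827 alone, and limma called 0 higher and either 3 lower (2D control or 3D gefitinib left out) or 4 lower (2D gefitinib or 3D control left out). Of all tested genes 6.46% to 6.70% were then higher and 8.96% to 9.18% lower. Without any 1 of the HCC827 arrays the error came from A549 alone, and 25 were higher and 28 lower with the 2D control or 3D gefitinib array left out (35.6% and 34.9% of all tested genes), or 14 higher and 43 lower with the 2D gefitinib or 3D control array left out (32.4% and 39.6% of all).

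Several of these genes start back to back with another gene, on opposite strands from a shared stretch of DNA. In the RefSeq promoter table (GRCh38.p14), which held 68 of the 76 genes, 20 (29.4%) had the start of another protein-coding gene within 1000 bases in that arrangement, against 1524 of 15842 genes (9.62%) overall. MRPS11 and MRPL46 are such partners of each other, with starts 320 bases apart, and both were lower in HCC827 (MRPS11 -1.38, MRPL46 -0.85). MRPS12 starts 181 bases from SARS2, which encodes the mitochondrial seryl-tRNA synthetase and was also lower, at -0.78. MRPS27 starts 133 bases from PTCD2, another pentatricopeptide gene, which stood at -0.48 and was called lower too. Of 9 members that were lower in HCC827 and had a tested partner, the partner was lower in 4 (MRPS11 and MRPL46 each counted as the other's), higher in 1 and not called in 4. The higher one was HIRA (0.73), beside MRPL40 (-0.45). Of all tested genes 26.1% were lower and 22.0% higher. A link between member and partner was not tested. The stretches before the starts of MRPS12, MRPS27 and MRPS11 are shown, picked because member and partner were both lower there. They are written 5' to 3' on the member's strand up to its start and stop at the partner's end of the stretch where that lies within 250 bases: MRPS12 at chr19:38930764-38930943, plus strand, MRPS27 at chr5:72320241-72320372, minus strand, and MRPS11 at chr15:88467458-88467707, plus strand.
MRPS12: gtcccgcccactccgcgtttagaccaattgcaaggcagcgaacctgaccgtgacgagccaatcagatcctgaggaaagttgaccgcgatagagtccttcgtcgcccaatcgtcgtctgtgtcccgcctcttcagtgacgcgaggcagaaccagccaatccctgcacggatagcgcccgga
MRPS27: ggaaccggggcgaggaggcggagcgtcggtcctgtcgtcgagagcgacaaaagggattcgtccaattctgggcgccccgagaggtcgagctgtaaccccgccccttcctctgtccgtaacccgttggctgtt
MRPS11: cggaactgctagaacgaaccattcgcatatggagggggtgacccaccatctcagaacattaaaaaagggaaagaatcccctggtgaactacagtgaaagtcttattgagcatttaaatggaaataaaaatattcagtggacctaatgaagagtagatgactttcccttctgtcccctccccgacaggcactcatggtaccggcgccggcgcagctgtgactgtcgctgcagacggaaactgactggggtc
The letters printed hold none of the motifs searched in the promoters: CATGCGC (a core of sites for NRF1, a factor that drives nuclear genes of mitochondrial proteins), CCGGAAG (the core of ETS-family sites) or AAGATGG (the core of YY1 sites), on either strand. In the whole promoter window, which runs on past the start, MRPS12 held the ETS and YY1 cores and MRPS27 the YY1 core.

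The second comparison asked what differed between the 3D scaffold and 2D culture, averaged over both lines. In 3D, 36 of the 76 genes were lower and 3 higher. Among all tested genes the balance was the other way, with 17.1% lower and 30.4% higher, against 47.4% and 3.95% of the 76. The median difference of the 76 was -0.43, and 0.12 over all tested genes. In 61 of the 76 the difference was below 0 (80.3%, against 39.7% of all tested genes). Both 3D arrays lay below both 2D arrays in each line in 47 genes (61.8% of the 76, 19.1% of all tested genes), and above them in 7 (9.21% and 33.4%). All 4 3D arrays lay below all 4 2D arrays in 27 (35.5%, against 10.1% of all). With cyclic loess the counts were 32 lower and 7 higher (42.1% and 9.21%, against 15.1% and 33.0% of all).

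The lower genes came from every part of the ribosome. MRPL19 read 10.93 and 10.79 in A549 2D, 10.20 and 10.82 in HCC827 2D, 8.91 and 8.84 in A549 3D, and 8.25 and 8.20 in HCC827 3D. MRPL19 is the counterpart of a bacterial protein at the interface of the subunits. All 4 of its 3D values lay below all 4 of its 2D values, with a difference of -2.13 ± 0.14 (adjusted p = 0.00418). MRPL42 read 9.35 and 9.53 in A549 2D, 10.14 and 10.20 in HCC827 2D, 7.81 and 7.93 in A549 3D, and 7.93 and 7.83 in HCC827 3D. MRPL42, mitochondria-specific, also fell without overlap, by a difference of -1.93 ± 0.084 (adjusted p = 0.00418), and its values in 3D lay close together. MRPS28 read 9.35 and 9.42 in A549 2D, 10.33 and 10.63 in HCC827 2D, 7.83 and 7.77 in A549 3D, and 8.60 and 8.22 in HCC827 3D. MRPS28 fell in both lines, at -1.83 ± 0.14 (adjusted p = 0.00434). MRPS30 read 9.50 and 9.62 in A549 2D, 10.34 and 10.49 in HCC827 2D, 8.04 and 8.20 in A549 3D, and 8.78 and 8.36 in HCC827 3D. MRPS30, first described in relation to cell death, stood at -1.64 ± 0.13 (adjusted p = 0.00434). In these 4 genes no 3D array reached any 2D array.

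Next in size were MRPL15 (-1.38 ± 0.17), MRPS17 (-1.29 ± 0.10), MRPL13 (-1.24 ± 0.12) and MRPS16 (-1.16 ± 0.09), all with bacterial counterparts. Each lay below 0 in 4 of 4 matched pairs of arrays, and in each all 3D values were below all 2D values. The stalk protein MRPL12 was lower by the chosen probe set (-1.03 ± 0.16) but its other probe set stood at -0.019. The 3 genes that rose in 3D also had bacterial counterparts. MRPS21 read 11.72 and 11.82 in A549 2D, 11.61 and 11.42 in HCC827 2D, 12.48 and 12.50 in A549 3D, and 12.48 and 12.45 in HCC827 3D. MRPS21, a small-subunit protein, had all 4 3D values above all 4 2D values, at 0.83 ± 0.088 (adjusted p = 0.00543). MRPL55 rose by 0.42 ± 0.09, again without overlap, and MRPL9 by 0.35 ± 0.086, with its 3D values above its 2D values within each line. The MRPL9 rise missed the threshold with no filter on low values (0.35, adjusted p = 0.0506) and averaged over its probe sets (0.072, adjusted p = 0.375).

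**Figure D2:**
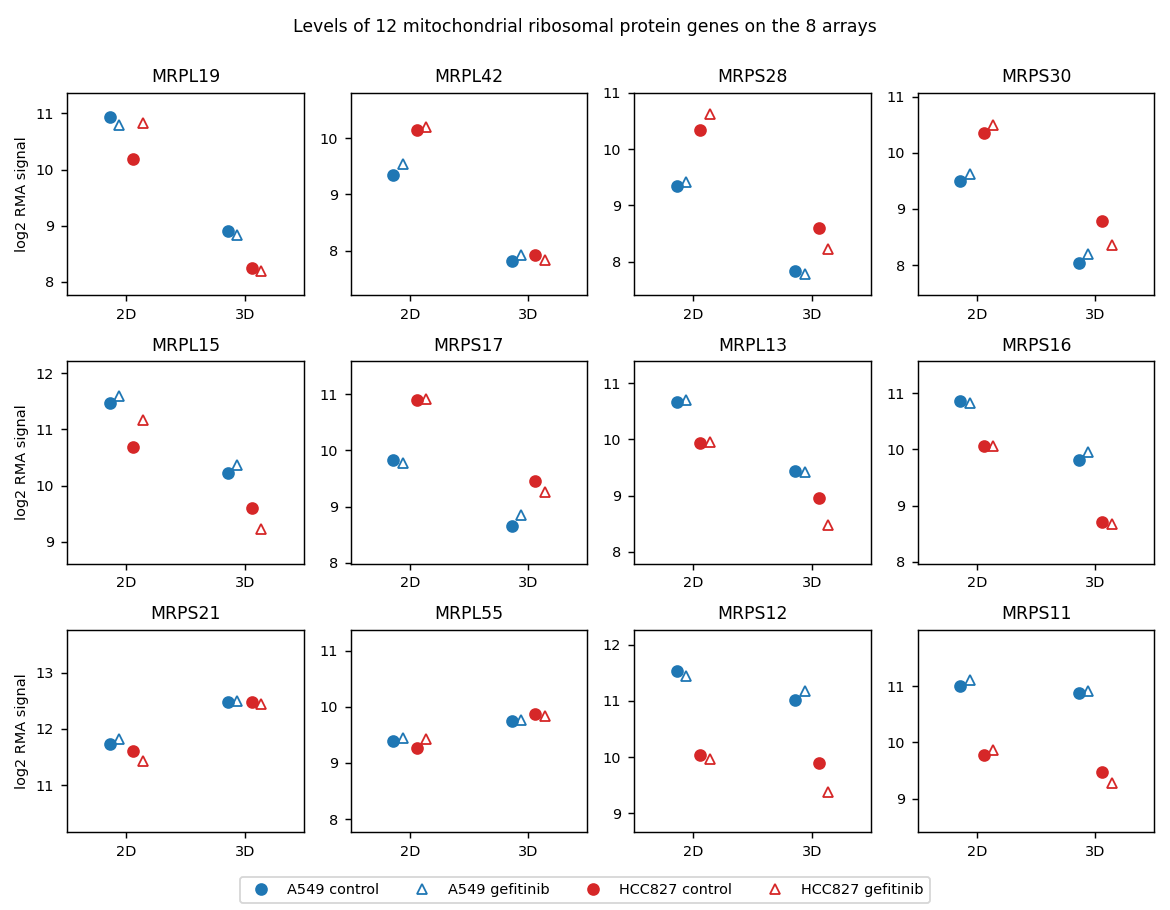
Log2 RMA signal (vertical axis, the same span in every panel) of 12 genes in 2D and 3D culture. Each point is 1 array, blue for A549 and red for HCC827, filled circles for control and open triangles for gefitinib as labelled. The 8 genes of the upper rows are lower in 3D in both lines, MRPS21 and MRPL55 are higher, and MRPS12 and MRPS11 separate the lines.

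Both origins and both subunits were represented. Of small-subunit genes with a bacterial counterpart, 1 higher and 8 lower of 16 were called (median -0.34). Of the mitochondria-specific ones of that subunit the counts were 0 higher and 5 lower of 10 (-0.55). In the large subunit they were 2 higher and 15 lower of 30 (-0.46) with a bacterial counterpart and 0 higher and 8 lower of 20 (-0.26) mitochondria-specific. Over all tested genes the shares were 17.1% lower and 30.4% higher, and differences between the roles were not tested. Here too the counts depended on which line supplied the error. Without any 1 of the A549 arrays 0 genes were called in either direction, of the 76 or of all tested genes. Without the HCC827 control array of 2D or of 3D, 59 were lower and 7 higher (30.5% and 43.6% of all tested genes), and without the gefitinib array of either culture 47 and 10 (25.6% and 45.3% of all). The actin 3' minus 5' difference moved with the same contrast (2.10 in 3D, -0.096 in 2D), and its part in these differences was not tested. In A549 3D it was lower (1.67 and 1.74) than in HCC827 3D (2.34 and 2.64).

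The stretches before the starts of MRPL19, with the largest fall, and MRPS21, with the largest rise, are given 5' to 3' on the gene's strand (GRCh38.p14, RefSeq), with any match to the 3 motifs named above in capitals. They lie at chr2:75646533-75646782, plus strand, and chr1:150293611-150293860, plus strand.
MRPL19: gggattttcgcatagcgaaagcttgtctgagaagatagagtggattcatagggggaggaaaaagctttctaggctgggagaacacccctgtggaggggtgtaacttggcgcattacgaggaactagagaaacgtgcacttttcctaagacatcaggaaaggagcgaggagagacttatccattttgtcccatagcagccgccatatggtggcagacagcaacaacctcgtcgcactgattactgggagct
MRPS21: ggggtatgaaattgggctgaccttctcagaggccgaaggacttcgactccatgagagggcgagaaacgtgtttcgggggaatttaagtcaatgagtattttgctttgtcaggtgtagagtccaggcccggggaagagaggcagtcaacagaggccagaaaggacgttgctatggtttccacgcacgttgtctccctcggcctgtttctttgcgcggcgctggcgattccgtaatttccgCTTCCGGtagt
The capitals in MRPS21 are an ETS-family core read on the other strand, 11 bases before the start, and the MRPL19 stretch held none of the motifs. Over the whole 300-base window (250 bases before to 50 after the start) the ETS core was found in 27 of the 68 promoters of these genes (39.7%), against 14.0% of 15842 protein-coding promoters. The YY1 core was found in 23 (33.8%, against 6.36%) and the NRF1 core in 7 (10.3%, against 5.69%). Among members lower in 3D the ETS core was present in 11 of 31 (35.5%) and among the others in 16 of 37 (43.2%). For the YY1 core the shares were 10 of 31 (32.3%) and 13 of 37 (35.1%). For the NRF1 core they were 4 of 31 (12.9%) and 3 of 37 (8.11%). These shares were not tested against each other. None of the 3 motifs was found in 25 of the 68, and all 3 in 1. A partner that starts back to back did not always move with the member: of 7 members lower in 3D with a tested partner, the partner was lower in 2, higher in 3 and not called in 2. Of all tested genes 17.1% were lower and 30.4% higher in 3D.

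Within each line the same direction was seen. In A549, 20 of the 76 were lower and 1 higher in 3D (all tested genes: 6.01% and 16.3%), with a median of -0.33 against 0.13 over all. In HCC827, 29 were lower and 2 higher (13.7% and 19.7% of all), with a median of -0.49 against 0.085. The pairs of that line as labelled were unlike in size: the median over the 76 was -0.25 between the control arrays and -0.63 between the gefitinib arrays, and -0.38 in both pairs of A549. Of the genes, 18 were lower in both lines, 2 were called only in A549 and 11 only in HCC827. The share of all tested genes with each overlap is not given here. The balance between the lines depended on the scaling. With cyclic loess 24 of the 76 were lower in A549 and 22 in HCC827 (6.26% and 10.9% of all tested genes). Higher with loess were 1 and 5 (1819 and 2766 of 11926 tested genes). The largest falls in A549 were MRPL19 (-1.98 ± 0.20), MRPS28 (-1.58 ± 0.20), MRPL42 (-1.57 ± 0.12), MRPS30 (-1.44 ± 0.18), MRPL13 (-1.26 ± 0.17), MRPL15 (-1.24 ± 0.24), MRPL39 (-1.07 ± 0.12) and MRPS17 (-1.04 ± 0.14), and MRPS21 rose (0.71 ± 0.12). In HCC827 they were MRPL42 (-2.29 ± 0.12), MRPL19 (-2.28 ± 0.20), MRPS28 (-2.07 ± 0.20), MRPS30 (-1.85 ± 0.18), MRPS17 (-1.54 ± 0.14), MRPL15 (-1.51 ± 0.24), MRPS16 (-1.37 ± 0.13) and MRPL44 (-1.27 ± 0.17), with MRPS21 (0.95 ± 0.12) and MRPL55 (0.50 ± 0.13) higher. Their largest adjusted p was 0.0353 in A549 and 0.0456 in HCC827. On the 4 arrays of A549 alone, or without both HCC827 2D arrays, 48 of the 76 were lower and 6 higher in A549 (22.4% and 41.7% of all tested genes without the HCC827 2D arrays), and on the 4 arrays of HCC827 alone 0 were called, of the 76 or of all. With any 1 array of A549 left out neither line had a call among all tested genes. With any 1 array of HCC827 left out A549 had 48 lower and 6 higher. HCC827 had 53 and 4 with a control array left out (30.8% and 33.9% of all) or 33 and 10 with a gefitinib array left out (22.7% and 35.6% of all).

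The difference between the culture effects of both lines was tested as an interaction, and limma called 0 of the 76 in either direction (0 of all tested genes; 3 of the 76 had an unadjusted p under 0.05). The widest differences, HCC827 minus A549, were -0.72 ± 0.17 (adjusted p = 0.223) for MRPL42 and -0.54 ± 0.26 (adjusted p = 0.446) for MRPL36, and 0.57 ± 0.17 (adjusted p = 0.276) for MRPS9 and 0.49 ± 0.22 (adjusted p = 0.407) for MRPL2, a protein near the site of peptide bond formation. The count depended on the HCC827 arrays left in: with either control array left out 26 were called lower and 2 higher (25.5% and 12.6% of all tested genes), and with either gefitinib array left out 2 and 11 (16.9% and 13.5% of all). With any 1 A549 array left out 0 were called. Cyclic loess raised the median of all genes in this comparison by 0.10. No difference between the lines is shown with all 8 arrays, which does not show that they responded alike. MRPL36, which read 11.79 and 11.71 in A549 2D, 11.73 and 11.71 in A549 3D, 11.63 and 11.80 in HCC827 2D, and 11.36 and 10.93 in HCC827 3D, had its lowest value in the HCC827 3D gefitinib array.

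**Figure D3:**
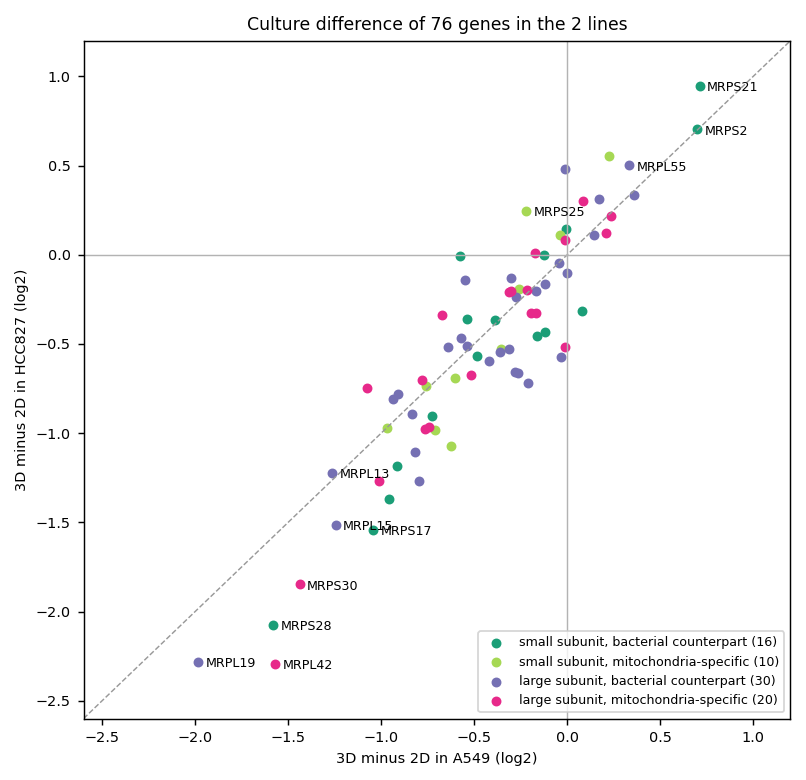
Difference between 3D and 2D (log2) in A549 (horizontal axis) and HCC827 (vertical axis) for the 76 genes, each a mean of 2 arrays against 2. Colours mark subunit and origin, with the number of genes in brackets, and the dashed line marks equal differences. Most genes lie below 0 on both axes, out to MRPL19 and MRPL42, and MRPS21 lies highest on both.

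The size of the culture difference depended on the probe set. Of the 76 genes, 38 had more than 1 probe set that passed the filter, and in 26 of them all probe sets had the same sign in the average over both lines. Of the 18 such genes that were lower in 3D, all probe sets were below 0 in 14, and each was itself called lower in 11, in a fit over 26781 probe sets. Of the genes with a single probe set past the filter, 18 were lower and 1 higher. MRPL19 stood at -2.13 in the chosen probe set and -0.57 in the other. The 3 of MRPL42 stood at -1.93, -0.96 and -1.94, and both of MRPL13 at -1.24 and -1.33. All 4 probe sets of MRPS21 were called higher, from 0.44 to 0.83. MRPS17 had the widest gap among genes whose probe sets differed in sign: -1.29 in the chosen one, 0.30 and -0.0043 in the others, so its fall rests on 1 probe set. With the mean of its probe sets MRPS17 was not called in A549 (-0.44, adjusted p = 0.0815) or HCC827 (-0.22, adjusted p = 0.254). MRPS10 (-1.05, against -1.16 and 0.0095), MRPS5 (0.07, against -1.09) and MRPS25 (0.013, others from -0.028 to 1.06) followed in width. With the mean of all probe sets of each gene, 40 of the 76 were lower and 4 higher, against 25.8% and 26.2% of 10636 genes, and the median was -0.32 against 0.00345 over all.

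**Figure D4:**
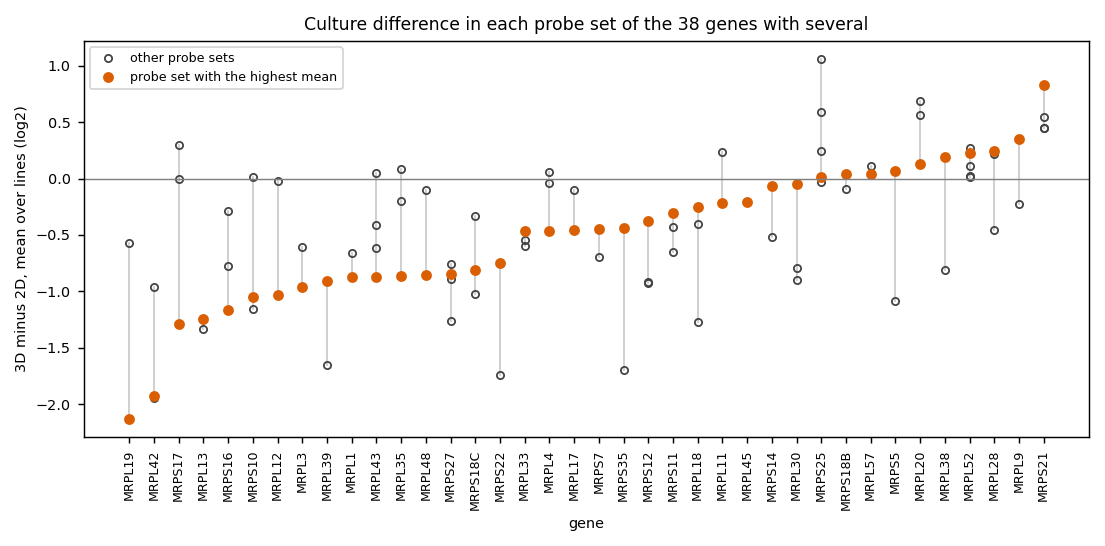
Difference between 3D and 2D (log2, averaged over both lines, vertical axis) in every probe set that passed the filter, for the 38 genes with more than 1. Orange points are the probe sets used, open circles the others, and grey lines join those of a gene. MRPL42, MRPL13 and MRPS21 have all their probe sets on one side of 0, whereas those of MRPS17 and MRPS10 reach across it.

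The third comparison asked how gefitinib moved these genes. In A549, without an activating mutation, limma called 0 of the 76 in either direction for the mean over both cultures (0 of all tested genes; 0 of the 76 at an unadjusted p under 0.05). The differences ran from -0.12 (MRPL12) and -0.11 (MRPL19) to 0.20 (MRPL18) and 0.20 (MRPS35). In the 2D pair 44 of the 76 were above 0 (57.9%, against 60.8% of all tested genes), and in the 3D pair 62 (81.6%, against 58.8% of all), with medians of 0.036 and 0.080. These signs depended on the scaling. For the mean over both cultures, 21 of the 76 were below 0 as deposited (38.8% of all tested genes) and 43 with cyclic loess. Their median went from 0.059 to -0.017 with loess, and that of all tested genes from 0.036 to 0.0057. None of the 76 passed 0.5 in either direction in either A549 pair. Of all tested genes 0.671% in 2D and 0.461% in 3D were above 0.5, and 0.252% and 0.260% below -0.5. The differences that lay furthest from 0 in 2D were -0.29 (MRPL1), -0.28 (MRPL12), -0.25 (MRPL41) and -0.24 (MRPL58) below it and 0.29 (MRPL21), 0.23 (MRPS35), 0.22 (MRPS2) and 0.21 (MRPL28) above it. In 3D they were -0.21 (MRPL4), -0.10 (MRPL35), -0.086 (MRPS31) and -0.079 (MRPL19) below it and 0.38 (MRPS27), 0.34 (MRPL27), 0.33 (MRPL18) and 0.30 (MRPL32) above it.

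In HCC827 3D, the gefitinib array lay below the control array in 67 of the 76 genes (88.2%, against 64.9% of all tested genes). The median difference was -0.28, against -0.11 over all tested genes, and 11 of the 76 were below -0.5 (14.5%, against 12.9% of all) and 0 above 0.5 (4.03% of all). A limma fit on 6 arrays, with the 2D pair of HCC827 left out and the error from A549 alone, called 25 lower and 0 higher, which is 32.9% of the 76 against 20.4% of all tested genes lower and 6.78% higher. The count depended on the scaling. Cyclic loess shifted the median of all tested genes in this comparison from -0.11 to 0.0496 and that of the 76 from -0.28 to -0.0327, and 2 of the 76 were then lower and 2 higher (MRPL32 and MRPL38), which is 2.63% each way against 9.58% of all tested genes lower and 14.1% higher. Relative to the median of all genes the median of the 76 stood at -0.17 as deposited and -0.082 with loess. The HCC827 3D gefitinib array had the narrowest spread of signals over all probe sets (SD 1.46, against 1.55 to 1.61 in the other 7). The 3' minus 5' differences were also larger in that array than in its control, at 2.64 against 2.34 for actin and 1.57 against 0.97 for GAPDH. The part of either in the gefitinib difference was not tested.

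MRPL37 had the largest fall: 10.84 in the HCC827 3D control and 10.12 in the gefitinib array, a difference of -0.72 ± 0.12 (adjusted p = 0.00159), and -0.45 (adjusted p = 0.0248) with loess. MRPS2, a small-subunit protein with a bacterial counterpart, went from 11.66 to 10.95, a difference of -0.71 ± 0.12 (adjusted p = 0.00206), and -0.42 (adjusted p = 0.0328) with loess. These were the only members lower under both scalings. MRPL11 (-0.62 ± 0.12), at the base of the stalk, MRPL18 (-0.59 ± 0.13), MRPS35 (-0.58 ± 0.12), MRPL17 (-0.58 ± 0.12), MRPL3 (-0.54 ± 0.12) and the stalk protein MRPL12 (-0.54 ± 0.14) passed as deposited, and with loess had adjusted p from 0.0566 to 0.191. MRPL11, MRPL17 and MRPL18 also missed with the mean of their probe sets, and MRPL18 and MRPS35 with the probe set of largest variance. The largest values the other way, neither of which passed, were 0.31 ± 0.13 for MRPL32, which is cut to its mature form by an inner-membrane protease, and 0.29 ± 0.12 for MRPL38.

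In the HCC827 2D pair, as labelled, the sign was turned: the gefitinib array lay above the control array in 64 of the 76 (84.2%, against 41.8% of all tested genes), with a median of 0.17 against -0.053 over all tested genes, and 4 of the 76 were above 0.5 (7.12% of all) and 0 below -0.5 (8.28% of all). The widest differences were 0.63 (MRPL19), 0.57 (MRPS2), 0.56 (MRPL37) and 0.52 (MRPL43), against -0.48 (MRPS24), -0.22 (MRPL52), -0.19 (MRPL33) and -0.19 (MRPS21). MRPL37 and MRPS2, the largest falls in 3D, were thus among the largest differences in 2D with the opposite sign. Of the 76 genes, 56 (73.7%) were above 0 in the 2D pair and below 0 in the 3D pair, as were 3944 of the 11926 tested genes (33.1%). The opposite combination held for 1 of the 76 (1.32%, against 26.3% of all). Of the 10 genes of ERK output and proliferation, DUSP6 (3.64 in 2D, -3.32 in 3D), ETV5 (2.52, -1.79), CCND1 (2.51, -1.78) and MKI67 (1.95, -1.53) were among the 9 that turned in this way and SPRY2 (0.0041, 0.10) was the exception, whereas the growth-driving transcription factor MYC stood on the same side in both, at -0.67 and -0.65, each 1 array against 1.

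**Figure D5:**
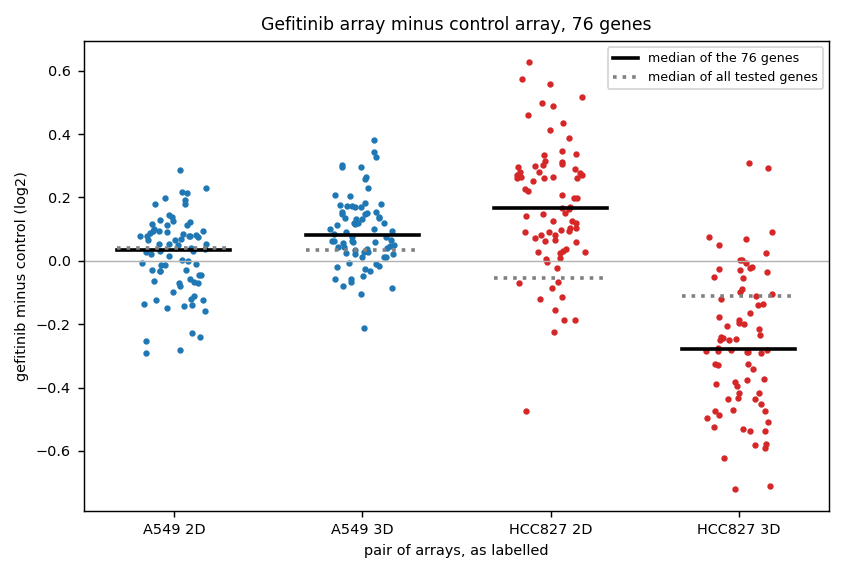
Gefitinib array minus control array (log2, vertical axis) in each line and culture as labelled; each point is 1 of the 76 genes. Solid lines mark the median of the 76 genes and dotted lines that of all tested genes. All values are as deposited, without loess scaling. The A549 pairs lie closer to 0 (medians 0.036 in 2D and 0.080 in 3D, with 62 of 76 above 0 in 3D), the HCC827 2D pair mostly above it (median 0.17) and the HCC827 3D pair mostly below (median -0.28).

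Other genes of the same system were read from lists. Of the mitoribosomal proteins that carry other symbols, CHCHD1 was lower in HCC827 (-1.07 ± 0.19), in 3D (-0.88 ± 0.19) and with gefitinib in HCC827 3D (-0.56 ± 0.13, though not with cyclic loess), and DAP3, PTCD3 and GADD45GIP1 passed in none of these. In 3D against 2D, 0 higher and 27 lower of 42 nuclear subunits of oxidative phosphorylation were called (median -0.55), led by SDHD of complex II (-2.20 ± 0.12) and COX5A of cytochrome oxidase (-1.59 ± 0.16). Cytosolic ribosomal proteins went the other way, 46 higher and 4 lower of 70 (median 0.37). Both medians kept their sign with cyclic loess (-0.44 and 0.34). Over all tested genes 30.4% were higher and 17.1% lower in 3D. Mitochondrial translation factors were 2 higher and 6 lower of 13 (-0.16), with the initiator methionyl-tRNA formyltransferase MTFMT at -0.88 ± 0.088. Aminoacyl-tRNA synthetases of mitochondria were 3 higher and 8 lower of 21 (-0.11), from the amidotransferase subunit GATC (-1.19 ± 0.078) to AARS2 (0.85 ± 0.086). Ribosome assembly factors were 5 higher and 5 lower of 28 (-0.05), among them FASTKD2 (-1.01 ± 0.13) and ERAL1 (0.61 ± 0.079), both of which bind mitochondrial ribosomal RNA. Genes of mitochondrial DNA expression were 4 higher and 8 lower of 17 (-0.44), the RNA polymerase POLRMT being higher (0.99 ± 0.10) and the single-stranded DNA-binding protein SSBP1 lower (-1.15 ± 0.16).

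Between the lines, the nuclear subunits of oxidative phosphorylation were 2 higher and 29 lower of 42 in HCC827 (median -0.59), the synthetases 9 higher and 3 lower of 21 (0.25), translation factors 0 higher and 4 lower of 13 (-0.054), assembly factors 5 higher and 8 lower of 28 (0.002), genes of mitochondrial DNA expression 2 higher and 5 lower of 17 (0.11) and cytosolic ribosomal proteins 17 higher and 11 lower of 70 (0.081). Over all tested genes 22.0% were higher and 26.1% lower. With cyclic loess the lists had, in the same order, 3 higher and 22 lower, 9 and 3, 1 and 2, 8 and 7, 2 and 5, and 23 and 4. Over all tested genes 3025 were then higher and 2734 lower of 11926. With gefitinib in HCC827 3D the oxidative phosphorylation subunits were 0 higher and 17 lower of 42 (-0.32) and cytosolic ribosomal proteins 0 higher and 3 lower of 70 (-0.043), as deposited. Cyclic loess changed both: 1 higher and 3 lower (median -0.019) for the former, 38 higher and 2 lower (0.35) for the latter. The corresponding counts were 0 higher and 3 lower of 13 for translation factors, 0 higher and 5 lower of 28 for assembly factors, 1 higher and 1 lower of 21 for synthetases and 0 higher and 6 lower of 17 for mitochondrial DNA expression. With loess they were 1 higher and 1 lower, 2 higher and 1 lower, 1 higher and 0 lower, and 3 higher and 1 lower. Over all tested genes 6.78% were higher and 20.4% lower as deposited, and 1682 higher and 1143 lower of 11926 with loess. Among known regulators of mitochondrial genes, MYC was higher in HCC827 (1.26 ± 0.089). PPARGC1A, a coactivator of mitochondrial biogenesis, read 9.07 and 9.40 in A549 2D, 7.70 and 7.95 in A549 3D, 6.47 and 6.41 in HCC827 2D, and 6.57 and 6.48 in HCC827 3D, so all 4 HCC827 values were below the array median and all 4 A549 values above it. In A549 the 3D values of PPARGC1A were below the 2D values. In 3D MYC (-0.79 ± 0.089) and the ETS factor GABPA (-0.56 ± 0.088) were lower and NRF1 was higher (0.63 ± 0.08).

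The paralogs MRPS18A, MRPS18B and MRPS18C descend from one bacterial protein and occupy different places, MRPS18A in the large subunit and the others in the small. In the role counts MRPS18C stands with the bacterial counterparts and the other paralogs with the mitochondria-specific proteins. None passed between the lines (-0.03 ± 0.16, 0.29 ± 0.13 and 0.12 ± 0.13 for A, B and C). In 3D MRPS18C was lower, at -0.81 ± 0.13 (adjusted p = 0.0113), having read 9.45 and 9.54 in A549 2D, 8.80 and 8.74 in A549 3D, 9.63 and 9.78 in HCC827 2D, and 9.01 and 8.59 in HCC827 3D. The others did not pass there (MRPS18A 0.17 ± 0.16, MRPS18B 0.036 ± 0.13), and the difference between the paralogs was not tested. With gefitinib in HCC827 3D all 3 were lower as deposited (-0.52 ± 0.12, -0.47 ± 0.13 and -0.42 ± 0.12), and none of them passed with loess. MRPL58 was not called in 3D (-0.26 ± 0.11) or with gefitinib in HCC827 3D (0.068 ± 0.14), and neither was MRPS12 in 3D (-0.38 ± 0.12). The other probe sets of MRPS12 stood lower in 3D than the chosen one, at -0.93 and -0.92. MRPS36 is listed by RefSeq as KGD4 and was not a member.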

How the data were processed

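RNA of 8 samples was measured on oligonucleotide arrays. The authors' deposited values are log2 signals per probe set, made by RMA, the robust multi-array average, with R 3.2.1 according to the submitters' processing notes. The build was not given in the sources used here. Among 49495 probe sets, 45278 were annotated to 1 gene symbol in the array annotation and used, 45208 of them matched to RefSeq (GRCh38.p14), 1333 with several symbols were left out, and 2782 were not listed. The filter set aside 6318 genes. In limma 3.58.1 (R 4.3.3), 6 coefficients were fitted, namely a level, a culture effect and a gefitinib effect for each line, and variances were moderated with a trend (2 residual degrees of freedom and 2.36 from the prior). The fit for gefitinib in HCC827 3D used 6 arrays (1 and 9.12). The fits were tested on simulated data. Tests are two-sided, and the number of arrays limits precision. Named by rule were the up to 8 largest calls each way with one sign in every pair of arrays, or the 2 largest differences where none passed, the 4 widest each way in the single gefitinib pairs, and MRPL19, MRPL12, MRPS12, MRPL58, MRPS30, MRPS36 and the MRPS18 paralogs. The members, lists and alternatives were chosen with earlier results of these data known, and the genes named from the other lists after their values were seen. Alternatives were other probe sets, filters, scalings and variance priors, and fits without single arrays.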

Additional observations from a re-analysis of the deposited data

Results flagged for a closer look

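MRPS25, a mitochondria-specific protein of the small subunit, was the 1 gene of the 76 whose 3D minus 2D difference had one sign in both pairs of A549 and the opposite sign in both pairs of HCC827. It read 9.73 and 9.66 in A549 2D, 9.49 and 9.45 in A549 3D, 9.11 and 9.20 in HCC827 2D, and 9.46 and 9.35 in HCC827 3D. The difference was -0.22 in A549 and 0.25 in HCC827. In the limma interaction test it was 0.47 ± 0.18 (adjusted p = 0.357), so the difference between the lines did not pass. The 4 other probe sets of the gene that passed the filter stood at 1.06, 0.59, 0.24 and -0.028 in the average over both lines. They ran from -0.085 to 0.87 in A549 and from 0.029 to 1.25 in HCC827, so not all had opposite signs in the lines. The share of all tested genes with such a pattern of pairs is not given here.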

How the results depend on the processing

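No paired analysis over replicates was possible because the labels carry no replicate numbers and each condition had 1 array. With matched arrays (same culture and treatment, or same line and treatment) as a block, an alternative added after seeing the data, counts were 10 higher and 25 lower between the lines and 4 and 34 between cultures, against 12 and 26, and 3 and 36. Counts of the 76 genes are given as higher and lower. For 3D against 2D in A549 (1 and 20), averaging a gene's probe sets gave 2 higher, taking its most variable one 3 and 33 (of 75 tested), and the fit 6 and 48 on the 4 arrays of A549 or without both HCC827 2D arrays. The share of all tested genes moved as well. With the most variable probe set 19.0% of them were lower in A549, against 6.01% as chosen. With the average 14.1% were higher, against 16.3%. For HCC827 (2 and 29), 4 were higher with the average, 4 with the most variable probe set and 1 with no filter. Loess gave 5 and 22 in HCC827, and the 4 arrays of HCC827 alone gave 0 and 0. Of all tested genes 17.4% were higher with the average, against 19.7% as chosen, and 2766 of 11926 with loess. Lower in HCC827 with loess were 10.9% of them, against 13.7% as chosen. In A549 loess gave 1 and 24, with 6.26% of all tested genes lower. For the mean over lines (3 and 36), 5 were higher with the most variable probe set and 7 with loess. For gefitinib in HCC827 3D (0 and 25), loess gave 2 and 2, and the mean of the 2D and 3D pairs 0 lower. Requiring every probe set to be called, an alternative added after seeing the data, gave 0 higher in A549, 1 higher and 19 lower in HCC827, and 14 lower with gefitinib. Shares of all tested genes are not given here for this alternative, for matched arrays or for no filter. Nor are they for genes higher with the most variable probe set. Leaving out 1 array at a time gave 0 to 6 higher and 0 to 48 lower in A549, 0 to 10 and 0 to 53 in HCC827, 0 to 10 and 0 to 59 for the mean over lines, 0 to 25 and 3 to 43 between the lines, and 0 to 11 and 0 to 26 for the interaction; it could not be run for gefitinib in HCC827 3D, where no degrees of freedom remain. The cause of these changes was not tested. Of the named genes' values under all alternatives, 685 kept direction and call, 205 kept direction only and 0 reversed. Other filters and variance priors, and the fit on a line's own 4 arrays, leave a gene's difference as it is. They could change the call but not the direction, so the count of reversals says nothing for them.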
